A study of Mus musculus with 8 samples.

Results

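In aortas of Marfan mice, 31 genes encoding semaphorins, plexins and neuropilins were followed between an age at which the study describes aneurysms as growing and an age at which it describes their growth as arrested. The genes were all those in the count tables with a semaphorin symbol of class 3 to 7 (Sema3a to Sema7a), a plexin symbol (Plxna1 to Plxnd1) or the symbols Nrp1 and Nrp2, which came to 31 of 25526 genes listed. They comprised 7 secreted semaphorins, 13 semaphorins held at the cell membrane, 9 plexins and 2 neuropilins. All 31 were counted in every library and passed the expression filter, so all were among the 13978 genes tested.

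Whole aortic tissue was sequenced as bulk RNA from 4 male mice at 2 years and 4 male mice at 12 weeks. Every mouse carried the genotype Fbn1C1041G/+, in which the fibrillin-1 gene has the missense change C1041G on a single allele, a widely used model of Marfan syndrome. Both age groups carry the allele, no wild-type aorta was analysed here, and the values therefore describe age within this genotype. The labels give neither the aortic segment nor a batch.

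Semaphorins are signalling proteins first known for steering growing axons. Plexins are their receptors and act inside the cell on small GTPases that control adhesion and the cytoskeleton. Most secreted class 3 semaphorins bind neuropilins, which join A-type plexins or plexin D1 into a receptor complex and which also bind vascular endothelial growth factors. In blood vessels this system is known for guiding endothelial sprouts and nerves, and several membrane semaphorins are known from lymphocytes and myeloid cells.

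Library totals ranged from 16251986 to 33880690 counts. Levels below are CPM, a gene's counts per 1e6 counts of its library after scaling between libraries, and fold changes are 2 years over 12 weeks on the log2 scale with their standard error (SE). Smooth muscle markers were abundant at both ages, with summed levels of 16743 to 25582 CPM at 2 years and 29246 to 34996 CPM at 12 weeks, and 6 of the 8 were lower at 2 years. Macrophage markers summed to 1946 to 2558 CPM at 2 years and 463 to 645 CPM at 12 weeks, and all 8 were higher. All 6 T cell markers and all 5 B cell markers were also higher, at sums of 40.2 to 69.1 and 21.3 to 90.9 CPM at 2 years against 5.596 to 12.8 and 1.87 to 3.14 CPM at 12 weeks. Endothelial markers summed to 436 to 600.0 CPM at 2 years. At 12 weeks they summed to 437 CPM in replicate 1 and to 816 to 919 CPM in the other 3 libraries. Of the 9 endothelial markers only Egfl7 and Cldn5 were not lowest in replicate 1 among the 12-week libraries. They were at 18.7 and 12.8 CPM there, against 15.9 to 19.7 and 10.4 to 14.3 CPM. Replicate 1 also had the lowest slope of log2 CPM on log2 transcript length in the 12-week group. It was 0.13, against 0.23 to 0.26. Heart muscle markers were at 852 CPM in 12 weeks replicate 3 and at 74.3 to 147 CPM in the other 7 libraries. Fat markers summed to 770.5 CPM in 2 years replicate 3 against 243 to 467 CPM in the other 2-year libraries, and to 554 CPM in 12 weeks replicate 3 against 103 to 193 CPM in the other 12-week libraries. Fibroblast markers summed to 11591 CPM in 2 years replicate 3, against 5403 to 6873 CPM in the other 2-year and 8669 to 9853 CPM in the 12-week libraries. The share of mitochondrial transcripts was 10.3% in 2 years replicate 3 and 4.14% to 7.33% in the other libraries. Fewer cells of a type and less RNA per cell cannot be told apart in bulk tissue.

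Of the 31 genes, 9 were higher and 15 were lower at 2 years, and 7 passed the test in neither direction (edgeR quasi-likelihood test, adjusted p below 0.05 over all genes tested). Of all 13978 genes, 25.8% were called higher and 26.2% lower, so the share of members called higher, 29.0%, was near that of all genes, while 48.4% were called lower. The members' median log2 fold change was -0.22, beside -0.01 for all genes tested. The groups did not overlap in 5 members that were higher and 12 that were lower at 2 years, beside 24.3% and 25.3% of all genes. Long transcripts were counted relatively less at 2 years throughout these libraries, and the members are long, with a median of 5930 nt against 3178 nt for all genes. An offset that removes each library's trend on transcript length and GC share was therefore fitted as well. With it 13 members were called higher and 8 lower, beside 23.0% and 27.7% of all genes, and the members' median became 0.32. With the offset and the replicate number as a block, 12 were higher and 7 lower, beside 20.0% and 24.6% of all genes. All 9 genes called higher without the offset were among the 13, while 8 of the 15 called lower kept that call. Heart muscle and fat markers were apart in 12 weeks replicate 3, and fat markers, fibroblast markers and mitochondrial transcripts in 2 years replicate 3. Without these libraries 7 members were higher and 13 lower, beside 3178 and 3321 of all genes. Without 12 weeks replicate 1, the library with the low endothelial sum and the lowest 12-week length slope, 7 members were higher and 15 lower. Of all genes 3596 were then higher and 3561 lower.

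**Figure D1:**
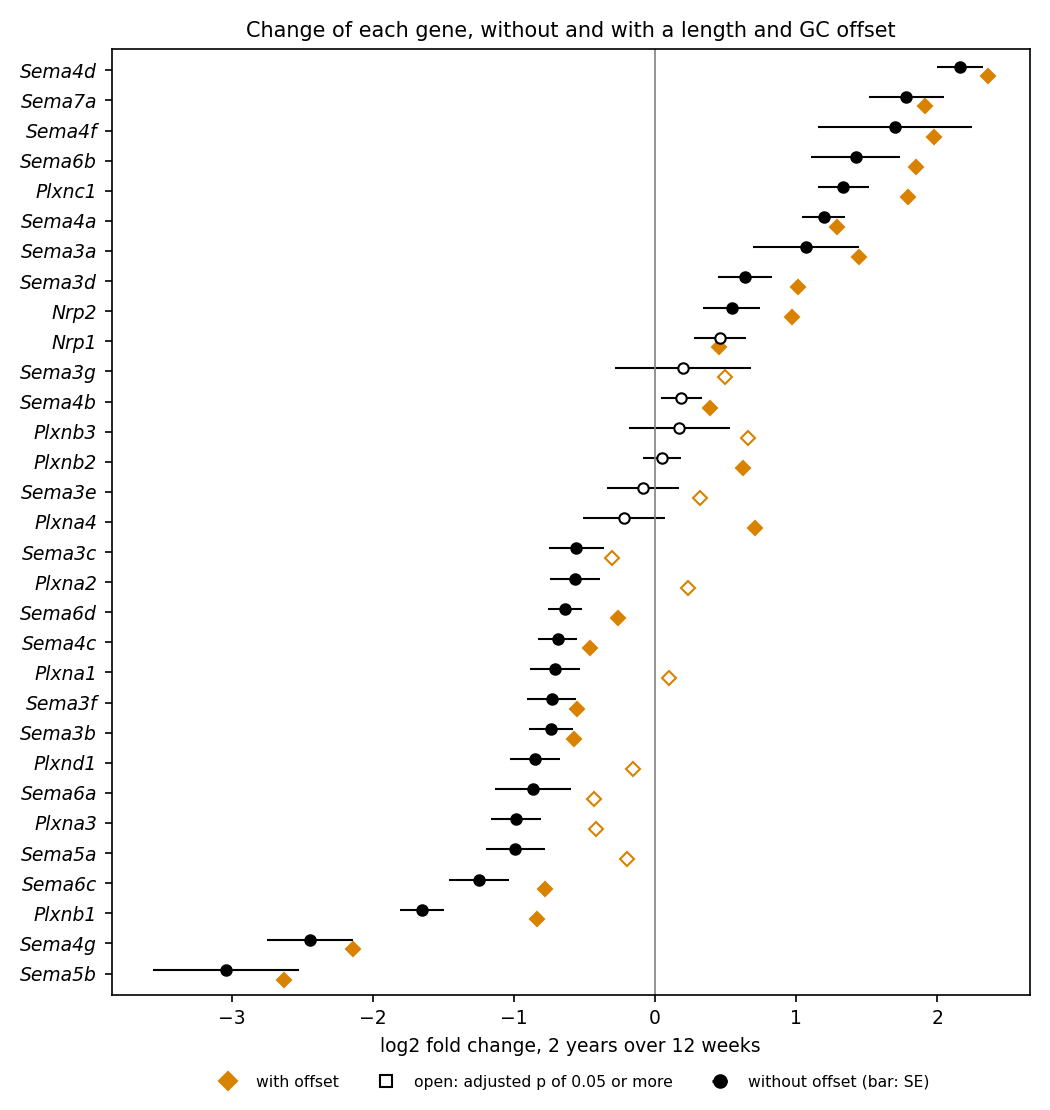
Log2 fold change of the 31 genes, 2 years over 12 weeks, ordered by size. Black circles with SE bars are without and orange diamonds with the length and GC offset, and open symbols have an adjusted p of 0.05 or more. The 9 genes called higher kept their place on the right with the offset, while Plxna1 and Plxna2 moved from -0.71 and -0.57 to 0.10 and 0.23.

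Of the 13 membrane semaphorins 5 were higher and 7 lower, shares of 38.5% and 53.8% beside 25.8% and 26.2% of all genes. With the offset 6 were higher and 5 lower, shares of 46.2% and 38.5% beside 23.0% and 27.7% of all genes. The members with the largest fold changes among those that rose were Sema4d and Sema7a. Sema4d, also called CD100, is carried by T cells and binds plexin B1. It had 46.9, 41.3, 33.0 and 51.6 CPM in 2 years replicates 1 to 4, against 10.6, 10.4, 9.32 and 8.31 CPM in 12 weeks replicates 1 to 4. The lowest 2-year library was above 3 times every 12-week value, and the log2 fold change was 2.16 (SE 0.16, edgeR adjusted p = 2.61e-06). Sema7a, a semaphorin anchored to the membrane by a lipid and a ligand of plexin C1 and integrins, had 7.22, 8.66, 12.3 and 9.13 CPM at 2 years and 2.93, 2.16, 3.92 and 1.78 CPM at 12 weeks. Again the groups did not overlap, with 2 years replicate 3 the highest, and the log2 fold change was 1.78 (SE 0.27, edgeR adjusted p = 0.000264). Sema4a, known from dendritic cells and T cell responses, had 29.5, 29.5, 25.8 and 28.8 CPM at 2 years and 15.4, 9.74, 11.7 and 12.9 CPM at 12 weeks. Its 2-year values lay close together and all above the 12-week values (log2 fold change 1.19, SE 0.15, edgeR adjusted p = 8.37e-05). Under the offset Sema4d, Sema7a and Sema4a were at 2.36, 1.91 and 1.29. All of them stayed called higher in each of the 16 alternatives. Macrophage, T cell and B cell markers rose in the same libraries, as given above, and their part in these results was not tested.

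Sema6b and Sema4f also rose. Sema6b, a transmembrane ligand of A-type plexins, had 5.31, 6.57, 9.75 and 4.48 CPM at 2 years and 3.54, 1.58, 2.66 and 1.91 CPM at 12 weeks, with no overlap between the groups (log2 fold change 1.42, SE 0.31, edgeR adjusted p = 0.00307). It stayed called higher in every alternative and was at 1.85 with the offset. Sema4f was rare, at 123 counts over the 2-year libraries and 38 over the 12-week libraries. Its levels were 0.713, 2.05, 0.910 and 1.25 CPM at 2 years and 0.437, 0.154, 0.740 and 0.162 CPM at 12 weeks, so that 2 years replicate 1 lay below 12 weeks replicate 3. Its change, 1.70 on the log2 scale (SE 0.55, edgeR adjusted p = 0.0218), was no longer called without 2 years replicate 2 (1.31), 12 weeks replicate 2 (1.44) or 12 weeks replicate 4 (1.45), and it was 2.40 without 12 weeks replicate 3 and 2 years replicate 3. Sema4b did not pass the test, at 10.2 ± 1.37 CPM at 2 years and 9.0 ± 0.659 CPM at 12 weeks (SD, n = 4 each), a log2 fold change of 0.19 that was 0.39 and called with the offset, and not called once the replicate block was added to it.

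Other membrane semaphorins fell. Sema4g had 0.371, 0.384, 0.650 and 0.486 CPM at 2 years and 2.31, 2.62, 2.55 and 2.68 CPM at 12 weeks, 46 counts against 256 in all. Every 2-year library lay far below the narrow 12-week range (log2 fold change -2.45, SE 0.30, edgeR adjusted p = 7.85e-05). Sema5b, a semaphorin with thrombospondin repeats, was close to the limit of detection with 13 counts over the 2-year libraries and 112 over the 12-week libraries. Its levels were 0.0856, 0.213, 0.130 and 0.104 CPM at 2 years and 0.480, 0.963, 1.41 and 1.54 CPM at 12 weeks. The groups did not overlap, and its change, -3.04 on the log2 scale (SE 0.52, edgeR adjusted p = 0.000588), was the largest in size among the 31 genes. Sema6c had 4.25, 5.03, 5.92 and 5.35 CPM at 2 years and 14.9, 7.59, 13.02 and 13.1 CPM at 12 weeks. Its lowest 12-week library, replicate 2, was still above all 2-year libraries (log2 fold change -1.25, SE 0.21, edgeR adjusted p = 0.000644). Sema4c, a ligand of plexin B2, fell to 18.0 ± 1.49 CPM at 2 years, against 29.0 ± 4.00 CPM at 12 weeks (SD, n = 4 each), without overlap (log2 fold change -0.69, SE 0.14, edgeR adjusted p = 0.00146). With the offset Sema4g, Sema5b, Sema6c and Sema4c were at -2.14, -2.63, -0.78 and -0.46, and all 4 were called lower in every alternative.

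Sema6d, Sema6a and Sema5a fell as well, and their values leaned on the correction or on single libraries. Sema6d, a ligand of plexin A1, had 15.7 to 18.8 CPM at 2 years and 25.3 to 29.6 CPM at 12 weeks (log2 fold change -0.64, SE 0.12, edgeR adjusted p = 0.00106), or -0.27 with the offset, a call that was lost once the replicate block was added. Sema5a, another semaphorin with thrombospondin repeats, had 88.8, 77.9, 59.4 and 106 CPM at 2 years and 111, 186, 169 and 193 CPM at 12 weeks. The groups did not overlap, but 12 weeks replicate 1 stood close to the 2-year libraries (log2 fold change -0.99, SE 0.21, edgeR adjusted p = 0.0023). Sema6a, a ligand of plexins A2 and A4, had 7.47, 6.31, 13.7 and 6.70 CPM at 2 years and 9.78, 17.8, 17.1 and 17.1 CPM at 12 weeks. There 2 years replicate 3 lay above 12 weeks replicate 1 (log2 fold change -0.87, SE 0.27, edgeR adjusted p = 0.0185). The 12-week library low in Sema5a and Sema6a was the one with the low endothelial sum of 437 CPM. It also had the lowest length slope of the 12-week group, 0.13 against 0.23 to 0.26. The parts of endothelial RNA and of the length slope in these values were not tested. Sema6a was not called without 2 years replicate 2 (-0.77), 2 years replicate 4 (-0.77) or 12 weeks replicate 2 (-0.80). The Sema5a transcript is 10809 nt long, and with the offset Sema5a and Sema6a were at -0.20 and -0.44 and neither was called.

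**Figure D2:**
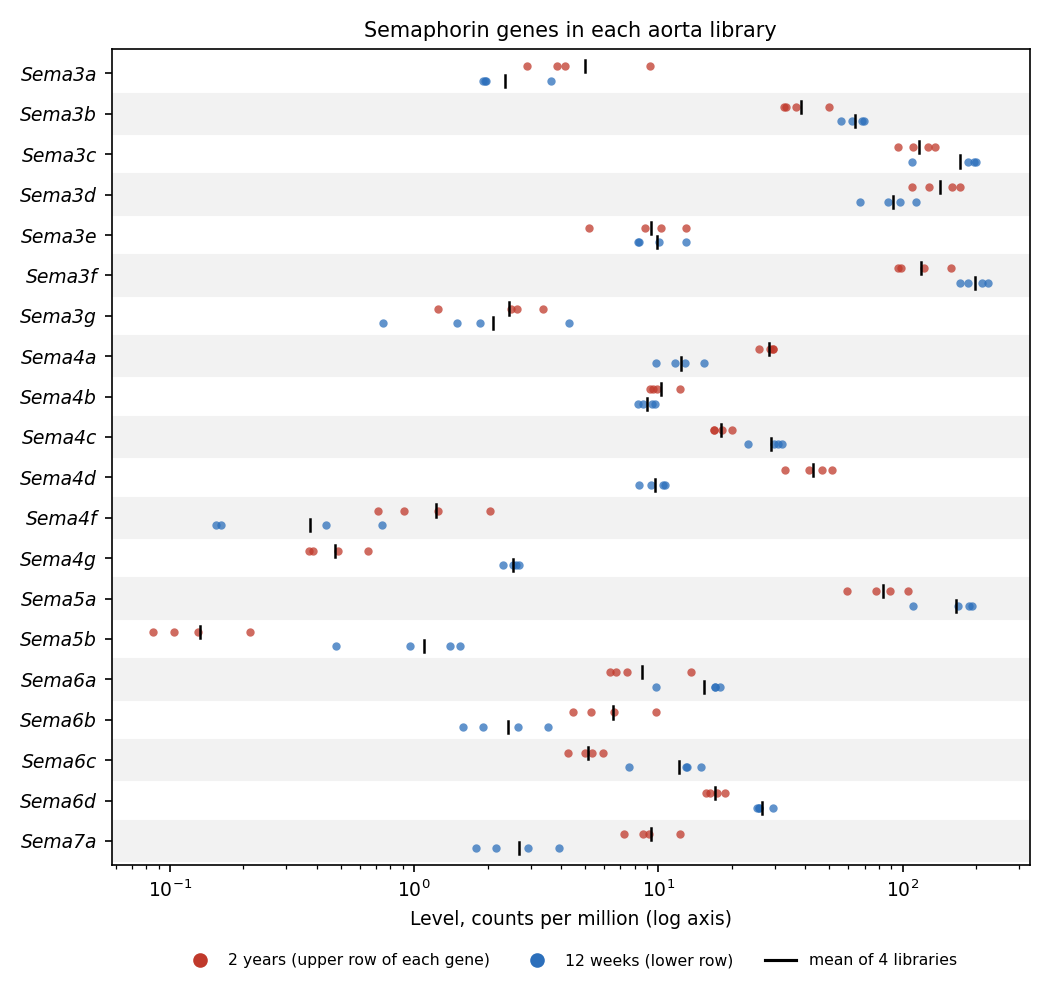
Level of the 20 semaphorin genes in CPM (log axis), with a point for each of the 4 libraries at 2 years (red, upper row of each gene) and at 12 weeks (blue, lower row) and a black tick at their mean. Sema4d, Sema4a and Sema7a lay wholly higher at 2 years, and Sema4g, Sema5b and Sema6c wholly lower.

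Of the 7 secreted class 3 semaphorins 2 were higher and 3 lower, shares of 28.6% and 42.9% beside 25.8% and 26.2% of all genes. With the offset 2 were higher and 2 lower, shares of 28.6% each beside 23.0% and 27.7% of all genes. Sema3f, which acts mainly through neuropilin 2, had 123, 96.1, 98.8 and 158 CPM at 2 years, against 224, 171, 185 and 211 CPM at 12 weeks. Sema3b, a close relative that binds both neuropilins, had 36.7, 33.4, 32.8 and 50.2 CPM at 2 years and 68.3, 56.0, 62.0 and 69.4 CPM at 12 weeks. Neither gene's groups overlapped, with 2 years replicate 4 the highest of its group for both. The log2 fold changes were -0.73 (SE 0.17, edgeR adjusted p = 0.00454) for Sema3f and -0.74 (SE 0.16, edgeR adjusted p = 0.00228) for Sema3b. Their transcripts, of 3395 and 3410 nt, are near the median of all genes, and with the offset they were at -0.55 and -0.58 and stayed called lower in all alternatives. Sema3d, known for guiding endothelial and neural crest cells, had 172, 129, 109 and 159 CPM at 2 years and 66.9, 114, 87.1 and 97.9 CPM at 12 weeks. The ranges touched, as 2 years replicate 3 lay below 12 weeks replicate 2 (log2 fold change 0.64, SE 0.19, edgeR adjusted p = 0.0146, and 1.01 with the offset), and the call held in every alternative. Sema3d was lowest in 12 weeks replicate 1, the library with the low endothelial sum, and was at 0.51 without it. The parts of endothelial RNA and of that library's low length slope in this value were not tested.

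Sema3c, a semaphorin known from the forming outflow tract of the heart, had 136, 127, 95.4 and 110.2 CPM at 2 years and 109.7, 196, 185 and 200.05 CPM at 12 weeks. Only 12 weeks replicate 1, the library with the low endothelial sum and the lowest 12-week length slope, stood within the 2-year range. The part of either in the Sema3c value was not tested. The change of Sema3c, -0.56 on the log2 scale (SE 0.19, edgeR adjusted p = 0.0315), was not called without 2 years replicate 3 (-0.47) or 4 (-0.53), without 12 weeks replicate 2 (-0.50), 3 (-0.53) or 4 (-0.49), without both replicates 3 (-0.43), or with the offset (-0.31) or the replicate block. Sema3a, the best known axon repellent of the class, had 3.85, 2.90, 9.23 and 4.13 CPM at 2 years and 1.97, 3.62, 1.92 and 1.95 CPM at 12 weeks. A single library was high in each group, 2 years replicate 3 and 12 weeks replicate 2. Its change, 1.07 on the log2 scale (SE 0.38, edgeR adjusted p = 0.0326), was not called without 2 years replicate 3 (0.62), 12 weeks replicate 1 (0.99), 3 (0.98) or 4 (0.98), without both replicates 3 (0.54), with limma voom (0.90) or with the replicate block. With the offset it was at 1.44 and called. Sema3e, the ligand of plexin D1 that needs no neuropilin, was at 9.29 ± 3.21 CPM at 2 years and 9.92 ± 2.22 CPM at 12 weeks, with a log2 fold change of -0.08 (SE 0.25). Sema3g was at 2.44 ± 0.884 CPM at 2 years and 2.10 ± 1.53 CPM at 12 weeks (SD, n = 4 each), with a log2 fold change of 0.20 (SE 0.48). Sema3g was highest, at 4.29 CPM, in 12 weeks replicate 3, the library with the high sums of heart muscle and fat markers, whose part in it was not tested. Without that library its log2 fold change was 0.81, and Sema3e and Sema3g passed the test in none of the alternatives.

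Of the 9 plexins 1 was higher and 5 lower, shares of 11.1% and 55.6% beside 25.8% and 26.2% of all genes. With the offset the balance turned round, to 3 higher and 1 lower, beside 23.0% and 27.7% of all genes. Plxnc1, the receptor of Sema7a and known from myeloid cells, was the one that rose. It had 15.01, 12.9, 13.004 and 20.1 CPM at 2 years and 5.24, 6.31, 5.55 and 7.10 CPM at 12 weeks, and every 2-year library was above every 12-week library (log2 fold change 1.34, SE 0.18, edgeR adjusted p = 0.000145, and 1.80 with the offset). Its call held in every alternative, and macrophage markers rose in the same libraries, whose part in it was not tested. Plxnb1, the receptor of Sema4d, had 24.1, 19.4, 19.4 and 26.4 CPM at 2 years, against 80.5, 57.2, 68.4 and 75.1 CPM at 12 weeks. The highest 2-year value was below the lowest 12-week value by more than either group's range, and the log2 fold change was -1.65 (SE 0.15, edgeR adjusted p = 1.07e-05). With the offset it was -0.84, and Plxnb1 was the only plexin called lower in every alternative. Smooth muscle markers fell in the same libraries, and their part in this result was not tested. Thus the ligand Sema4d was higher and its receptor Plxnb1 lower at 2 years, while for Sema7a and Plxnc1 both were higher.

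The falls of the other plexins were lost with the length and GC offset. Plxnd1, an endothelial plexin and the receptor of Sema3e, had 44.8, 38.5, 64.0 and 68.9 CPM at 2 years and 96.1, 93.5, 102 and 98.5 CPM at 12 weeks, without overlap (log2 fold change -0.85, SE 0.18, edgeR adjusted p = 0.00224). Plxna3, which serves neuropilin 2 complexes, had 5.31, 5.84, 4.49 and 6.84 CPM at 2 years and 13.5, 10.9, 9.28 and 11.1 CPM at 12 weeks (log2 fold change -0.99, SE 0.18, edgeR adjusted p = 0.000887). Plxna1, a receptor for class 3 and class 6 semaphorins, had 45.2, 37.3, 44.8 and 70.1 CPM at 2 years and 84.1, 74.5, 77.7 and 86.9 CPM at 12 weeks (log2 fold change -0.71, SE 0.18, edgeR adjusted p = 0.00666). In all 3 genes each 2-year library lay below each 12-week library, and for Plxna1 the nearest was 2 years replicate 4. Plxna2 had 23.0 to 43.5 CPM at 2 years and 40.0 to 51.2 CPM at 12 weeks and overlapped in replicate 4 of the 2-year and replicate 1 of the 12-week group. Its change, -0.57 on the log2 scale (SE 0.18, edgeR adjusted p = 0.02), was not called without 12 weeks replicate 2 (-0.54) or 4 (-0.54) or without both replicates 3 (-0.54). With the offset Plxnd1 and Plxna3 were at -0.16 and -0.42, Plxna1 and Plxna2 were at 0.10 and 0.23, and none of the 4 was called.

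Plxna4, Plxnb2 and Plxnb3 passed the test in neither direction without the offset. Plxna4, the receptor of several class 6 semaphorins, had 64.0, 41.8, 135 and 86.9 CPM at 2 years and 91.2, 95.4, 89.9 and 105 CPM at 12 weeks. Its 2-year libraries lay on both sides of the narrow 12-week range, with replicate 3 the highest (log2 fold change -0.22, SE 0.29, edgeR adjusted p = 0.542). Without 2 years replicate 3 it was called lower at -0.57, whereas with the offset, at a transcript length of 12877 nt, it was called higher at 0.71. Plxnb2, a broadly expressed plexin, was at 277 ± 39.6 CPM at 2 years and 267 ± 19.4 CPM at 12 weeks (SD, n = 4 each), a log2 fold change of 0.05 (SE 0.14) that became 0.62 and called with the offset. Plxnb3 stayed below 1 CPM in all libraries. The sign of Plxna4 therefore changed with the removal of the length trend, while Plxnb2 was positive in both fits and called only with the trend removed.

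Of the neuropilins, the coreceptors, Nrp2 was called higher, a call lost in several alternatives, and Nrp1 passed the test only in some alternatives. Nrp2 had 37.9, 29.8, 60.6 and 43.7 CPM at 2 years and 24.5, 28.3, 34.0 and 31.1 CPM at 12 weeks. It was highest in 2 years replicate 3, the library with high fat and fibroblast sums and mitochondrial share, whose part in it was not tested. The groups overlapped because 2 years replicate 2 lay below 2 of the 12-week libraries (log2 fold change 0.54, SE 0.20, edgeR adjusted p = 0.0395). With the offset Nrp2 was at 0.97 and called, but without it the call was lost on leaving out 2 years replicate 3 (0.33) or 4 (0.53) or 12 weeks replicate 1 (0.46), 2 (0.52) or 4 (0.56), on leaving out both replicates 3 (0.42), and with limma voom (0.50). Nrp1 had 155, 136, 216 and 219.8 CPM at 2 years and 103, 143, 129 and 153 CPM at 12 weeks. The groups overlapped, with 2 years replicate 2 below 2 of the 12-week libraries, and the threshold was missed (log2 fold change 0.46, SE 0.19, edgeR adjusted p = 0.057). It was called with the offset (0.45), with DESeq2, and without 2 years replicate 1 (0.53) or 2 (0.55). Both neuropilins were lowest in 12 weeks replicate 1, the library with the low endothelial sum, and Nrp1 was at 0.35 without it. The parts of endothelial RNA and of that library's low length slope in these values were not tested.

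**Figure D3:**
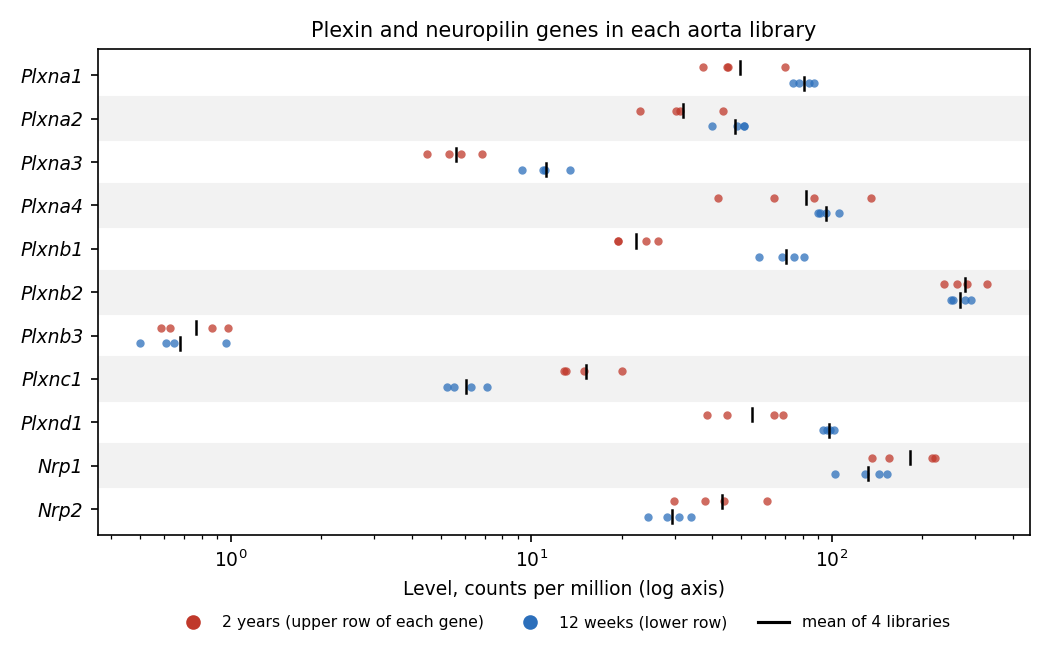
Level of the 9 plexin and 2 neuropilin genes in CPM (log axis), with a point for each of the 4 libraries at 2 years (red, upper row of each gene) and at 12 weeks (blue, lower row) and a black tick at their mean. Plxnc1 lay wholly higher and Plxnb1 wholly lower at 2 years, while the Plxnb2 groups lay on one another at means of 277 and 267 CPM.

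The plexins are among the longest of these transcripts, and genes of like length set the scale for their falls. Among all 680 tested genes of 8000 to 13000 nt the median log2 fold change was -0.69, with 6.62% called higher and 60.4% lower. The 5 members in that range, Plxna1, Plxna2, Plxna4, Plxnb1 and Sema5a, had a median of -0.71, with 0 called higher and 4 lower. In the 5000 to 8000 nt range, 4 of 12 members were higher and 5 lower, beside 10.3% and 46.2% of 2182 genes. In the 3000 to 5000 nt range, 5 of 14 members were higher and 6 lower, beside 18.5% and 28.3% of 4402 genes. The slope of a library's log2 CPM on log2 length, relative to each gene's mean, was -0.32 to -0.11 in the 2-year libraries and 0.13 to 0.26 in the 12-week libraries. Length trend and age cannot be told apart in these libraries, since the slopes of the groups did not overlap.

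**Figure D4:**
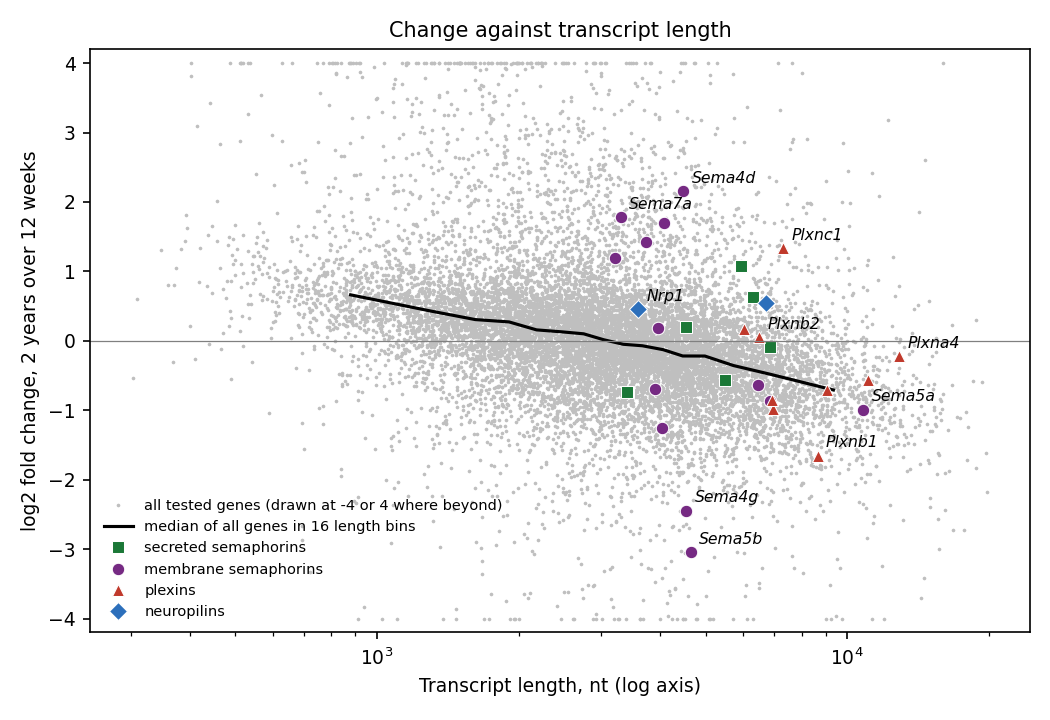
Log2 fold change, 2 years over 12 weeks, against transcript length in nt (log axis) for all tested genes of 300 to 20000 nt (grey), with the median in 16 length bins (black line) and the 31 members in colour. Sema4d, Sema7a and Plxnc1 lay far above the line and Plxnb1, Sema4g and Sema5b far below it, while Plxna1 lay on it and Sema5a, Plxna2 and Plxna4 lay beyond its right end.

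Per kilobase of transcript, which allows levels to be compared between genes, secreted semaphorins made up most semaphorin RNA at both ages. Their share of the summed semaphorin level was 65.0% to 70.2% in the 2-year libraries and 73.6% to 75.1% in the 12-week libraries. Sema3f ranked first of the 20 semaphorins in all 8 libraries, at 35.0 ± 8.44 CPM per kb at 2 years and 58.2 ± 7.05 CPM per kb at 12 weeks (SD, n = 4 each). At 2 years Sema3d (22.5 ± 4.51) and Sema3c (21.3 ± 3.29 CPM per kb) followed and did not differ beyond their spread, and at 12 weeks Sema3c (31.4 ± 7.74 CPM per kb) stood above Sema3d (14.5 ± 3.11 CPM per kb). The share of class 4 semaphorins was 18.1% to 20.6% at 2 years and 8.56% to 11.3% at 12 weeks. Sema4d ranked 5 or 6 among the semaphorins in each 2-year library and 10 to 12 in each 12-week library, with shares of 6.25% to 7.36% and of 1.02% to 1.504%. Sema7a held 1.51% to 3.17% at 2 years and 0.296% to 0.714% at 12 weeks. The transcripts of class 4 and class 7 members, of 3205 to 4548 nt, span a narrow range of length. The total behind each share also holds longer transcripts, such as Sema3c (5491 nt), Sema3d (6307 nt) and Sema5a (10809 nt). No length offset was applied to the shares, and the part of the length trend in them was not tested. Among plexins Plxnb2 ranked first in all libraries, at 42.6 and 41.1 CPM per kb at 2 years and 12 weeks, and the share of Plxnc1 was 2.46% to 3.20% at 2 years and 0.792% to 1.07% at 12 weeks. Neuropilins summed to 56.9 ± 13.5 CPM per kb at 2 years and 41.1 ± 6.45 CPM per kb at 12 weeks, most of it Nrp1.

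**Figure D5:**
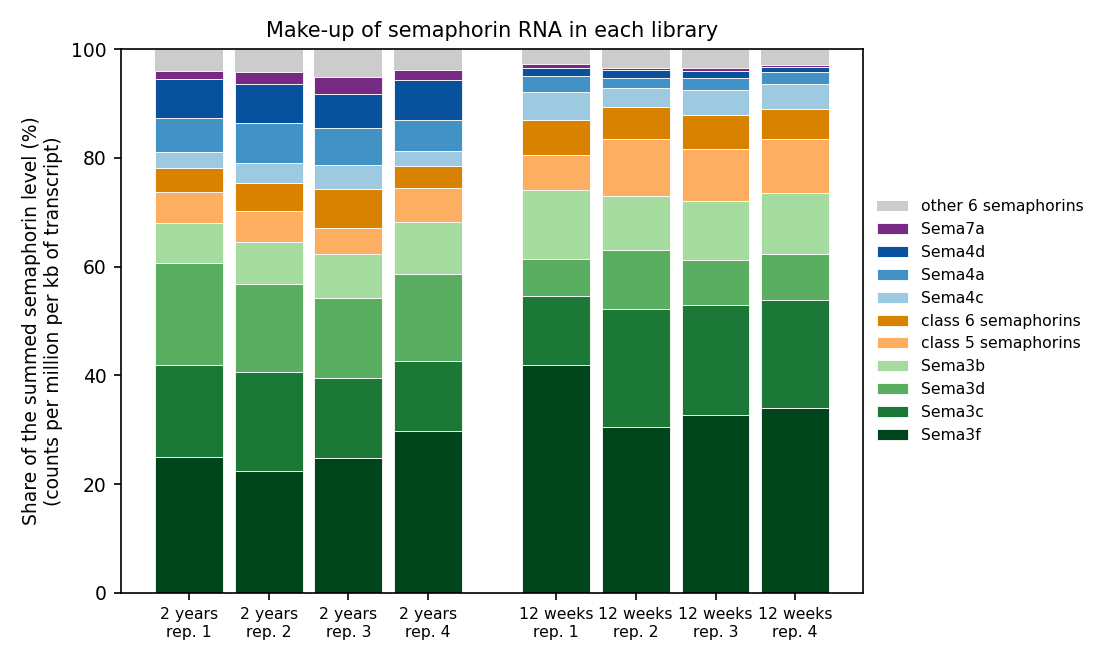
Share (%) of the summed semaphorin level, in CPM per kb of transcript, held by named genes and classes in each library, with the 2-year libraries on the left and the 12-week libraries on the right. The blue segments of Sema4a and Sema4d were wider in every 2-year library, and the orange class 5 segment was wider in every 12-week library. The shares carry no length offset.

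Ratios of counts between relatives within a library are free of the scaling between libraries. Sema4d over Sema4c was 2.78, 2.27, 1.65 and 3.05 in 2 years replicates 1 to 4 and 0.342, 0.449, 0.313 and 0.259 in 12 weeks replicates 1 to 4. The order of this pair of class 4 genes, of 4482 and 3892 nt, was thus turned round in every library. Sema3d over Sema3c was 1.26, 1.01, 1.14 and 1.44 at 2 years and 0.610, 0.580, 0.471 and 0.489 at 12 weeks. Raw counts of Sema3d were thus above those of Sema3c in each 2-year library and below in each 12-week library. Sema3d is the longer transcript, at 6307 against 5491 nt. Per kb Sema3c stayed above Sema3d in 2 years replicates 2 (23.2 against 20.4 CPM per kb) and 3 (17.37 against 17.29 CPM per kb). Plxnb1 over Plxnb2 was 0.0743 to 0.0857 at 2 years and 0.226 to 0.278 at 12 weeks, and Sema6b over Sema6c was 0.838 to 1.65 at 2 years and 0.145 to 0.237 at 12 weeks. None of these 4 ratios overlapped between the ages. The pairs were chosen after their values were seen, so the ratios are given without a test.

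Promoter sequences are shown for the 2 genes called higher and the 2 called lower with the smallest p among members that have a single RefSeq promoter and a mean of at least 1 CPM. Sema4d and Sema4a had smaller p than the higher genes shown, but have several promoters and were left out. Sema4g, which is shown, had only 46 counts over the 2-year libraries. Each is 300 bases, from 250 before to 50 after the annotated start, from RefSeq on build GRCm38.p6, and 26 of the 31 members had a sequence. Capitals mark every match, on either strand, to the GC box (GGGCGG), the PU.1 core (GAGGAA), the AP-1 site (TGANTCA), the interferon response element core (GAAA, any 2 bases, GAAA) or the CArG box.
Plxnc1, chr10:94944796-94945095, minus strand: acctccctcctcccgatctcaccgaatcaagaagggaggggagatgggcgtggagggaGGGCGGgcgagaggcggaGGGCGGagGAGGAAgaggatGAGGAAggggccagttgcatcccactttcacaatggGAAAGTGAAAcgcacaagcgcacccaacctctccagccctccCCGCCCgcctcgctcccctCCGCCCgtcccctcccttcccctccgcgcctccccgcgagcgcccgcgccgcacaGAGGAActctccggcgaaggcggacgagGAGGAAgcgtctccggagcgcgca
Sema7a, chr9:57939862-57940161, plus strand: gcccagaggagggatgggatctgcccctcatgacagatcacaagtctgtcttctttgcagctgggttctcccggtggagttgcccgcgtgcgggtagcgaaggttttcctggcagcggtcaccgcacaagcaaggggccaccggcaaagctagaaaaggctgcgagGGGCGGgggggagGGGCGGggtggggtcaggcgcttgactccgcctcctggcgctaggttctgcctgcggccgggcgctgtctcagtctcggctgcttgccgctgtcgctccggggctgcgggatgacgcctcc
Plxnb1, chr9:109095186-109095485, plus strand: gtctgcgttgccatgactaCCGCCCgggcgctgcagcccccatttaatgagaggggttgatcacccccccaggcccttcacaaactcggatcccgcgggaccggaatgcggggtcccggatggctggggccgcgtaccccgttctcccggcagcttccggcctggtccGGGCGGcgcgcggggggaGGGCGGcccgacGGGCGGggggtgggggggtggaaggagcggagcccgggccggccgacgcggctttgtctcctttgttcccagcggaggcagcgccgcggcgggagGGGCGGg
Sema4g, chr19:44989094-44989393, plus strand: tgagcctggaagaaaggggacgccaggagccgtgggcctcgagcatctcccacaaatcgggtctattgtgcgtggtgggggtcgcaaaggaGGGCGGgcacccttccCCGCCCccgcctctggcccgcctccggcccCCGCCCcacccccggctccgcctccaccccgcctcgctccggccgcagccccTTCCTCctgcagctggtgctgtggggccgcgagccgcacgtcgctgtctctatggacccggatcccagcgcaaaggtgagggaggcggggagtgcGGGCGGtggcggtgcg
The Plxnc1 window held 4 GC boxes, 4 PU.1 cores and 1 interferon response element core. PU.1 is a transcription factor of myeloid and B cells. Sema7a held 2 GC boxes, Plxnb1 held 5, and Sema4g held 4 GC boxes and 1 PU.1 core, and no matches overlapped in these windows. Over the 37 promoters of the 26 members, 73.0% held a GC box and 32.4% a PU.1 core, against 35.7% and 28.3% of all 32851 promoters. The AP-1 site was in 8.11% and 7.81%, the interferon core in 5.41% and 3.44%, and the CArG box in 2.70% and 1.63%. A match describes the letters of a window and is not evidence of binding.

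Of 68 genes for binding partners and signalling steps of the pathway, 20 were called higher and 21 lower, shares of 29.4% and 30.9% near the 25.8% and 26.2% of all genes, and their median log2 fold change was -0.09. Among 19 coreceptors and alternative receptors 7 rose and 6 fell, shares of 36.8% and 31.6%. With the offset 10 were higher and 5 lower, shares of 52.6% and 26.3% beside 23.0% and 27.7% of all genes. Cd72, a receptor of Sema4d on B cells, had 43.2, 56.4, 46.2 and 47.7 CPM at 2 years and 3.71, 5.08, 3.74 and 4.46 CPM at 12 weeks (log2 fold change 3.51, SE 0.16, edgeR adjusted p = 2.03e-07, and 3.44 with the offset). Trem2 and Tyrobp, myeloid proteins that join plexin A1 in a receptor complex, rose by 3.22 and 2.97 on the log2 scale, or by 2.62 and 1.95 with the offset. Chl1, a neural adhesion molecule that binds neuropilins, had 30.0, 17.1, 30.4 and 5.17 CPM at 2 years and 1.44, 2.23, 5.07 and 3.28 CPM at 12 weeks. Its 2 years replicate 4 was thus close to 12 weeks replicate 3 (log2 fold change 2.77, SE 0.58, edgeR adjusted p = 0.00388, and 3.30 with the offset). Macrophage and B cell markers rose in the same libraries, and their part was not tested. Mst1r, a receptor kinase that associates with B-type plexins, fell to 6.59 ± 0.465 CPM at 2 years, against 19.98 ± 5.06 CPM at 12 weeks (SD, n = 4 each; log2 fold change -1.60, edgeR adjusted p = 4.21e-05, and -1.26 with the offset). Robo1 and Tspan2 had log2 fold changes of -1.24 and -0.99, and were at -0.75 and -0.90 and still called lower with the offset. Itga1, a chain of a Sema7a-binding integrin, had a log2 fold change of -0.88 that was -0.11 and not called with the offset.

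Inside the cell, 11 of 28 GTPases, regulators and kinases rose and 6 fell, shares of 39.3% and 21.4% beside 25.8% and 26.2% of all genes, and with the offset 10 were higher and 5 lower. Pak1, a kinase downstream of Rac, had 31.1, 35.1, 23.3 and 31.9 CPM at 2 years and 6.99, 7.01, 3.77 and 6.49 CPM at 12 weeks (log2 fold change 2.33, SE 0.21, edgeR adjusted p = 8.93e-06, and 2.19 with the offset). Rap1b, Farp1 and Arf6 rose by 0.94, 0.78 and 0.72, or by 0.75, 1.09 and 0.46 with the offset. Ssh1, Limk2, Arhgef12 and Arhgef11 fell, at -1.02, -1.01, -0.95 and -0.86. With the offset they were at -0.41, -0.90, -0.16 and -0.41, and Arhgef12 was not called. Of 13 adaptors and cytoskeletal effectors 2 rose and 5 fell, shares of 15.4% and 38.5%, and with the offset 2 were higher and 4 lower. Mical1, Mical2 and Mical3, oxidases that plexins engage to take actin filaments apart, fell. Mical3 had 29.7, 16.2, 40.1 and 42.9 CPM at 2 years and 174, 156, 148 and 156 CPM at 12 weeks (log2 fold change -2.30, SE 0.26, edgeR adjusted p = 4.31e-05, and -1.56 with the offset). Mical2 and Mical1 were at -1.21 and -0.73, and at -0.78 and -0.56 with the offset. In the same libraries 6 of 8 smooth muscle markers were lower and all 8 macrophage markers higher at 2 years. Their part in the values of Pak1, the MICAL genes and the other genes named was not tested. Among 8 proteases that cleave semaphorins or plexins 0 rose and 4 fell, beside 25.8% and 26.2% of all genes. The 4 were all proprotein convertases, and with the offset 1 protease was higher and 3 were lower. Furin, which processes class 3 semaphorins, fell to 61.9 ± 17.2 CPM at 2 years, against 107 ± 13.3 CPM at 12 weeks (SD, n = 4 each; log2 fold change -0.79, edgeR adjusted p = 0.00624, and -0.48 with the offset), and Pcsk5 had a log2 fold change of -1.10, or -0.57 with the offset. With the offset 23 of the 68 genes rose and 17 fell, beside 23.0% and 27.7% of all genes.

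The handling of strand is not given in the sources used here, and exons of 4 members share bases with a gene on the opposite strand in GENCODE M21. They are Plxna1, with 970 shared bases, Sema4c with 334, Plxna4 with 110, and Plxnb1. Exons of Nrp1 and Sema4a share 80 and 73 bases with a microRNA gene on the same strand. Exons of Plxnc1 share 115 bases with a predicted gene on the same strand. Of all these overlapping genes, only the one that overlaps Plxnc1 is in the count tables. If reads were counted without strand, those from the opposite-strand bases cannot be told apart between the genes of a pair, and those shared on the same strand cannot in either case.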

How the data were processed

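Bulk RNA sequencing of mouse aorta gave 1 table per library. Per the file headers, the values the authors deposited are raw counts, whole numbers with a different total in each library. Total RNA came from spin columns and was read on a NovaSeq instrument, per the labels' protocols, and the submitters' processing notes name the build GRCm39. Not given in the sources used here are the aligner, counter, annotation and handling of strand. Libraries were grouped by age from their titles, with 4 mice each. Chi-square per degree of freedom was 22.53 to 144.57 between replicates, well above counting noise, so each was kept as 1 sample. Nothing in the labels says more about the mice, so p-values measure the spread between these libraries.

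Genes were kept by filterByExpr, scaled by TMM and tested by quasi-likelihood in edgeR (robust, age as the only term), with Benjamini-Hochberg adjustment over the 13978 genes tested and a call at an adjusted p below 0.05. The SE is the log2 fold change over the root of F. Transcript length and GC share came from the longest coding transcript in GENCODE M21 (GRCm38) and were found for 97.8% of tested genes. The offset was fitted to log2 CPM (prior count 2) with natural splines of 4 degrees of freedom. Alternatives were DESeq2 size factors, no filter, DESeq2, limma voom, a replicate block, the offset with and without the block, leaving out each library, and leaving out both replicates 3. The tests ran in R 4.3.3 with edgeR 4.0.16, DESeq2 1.42.0 and limma 3.58.1. The pipeline was tested on simulated data. Members, partner lists and markers were chosen with earlier results of these data known. Every member may be named; of each partner sublist, only called genes with the smallest p, up to 4 in each direction. The length ranges and the motifs were chosen for description after fold changes were seen.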

Additional observations from a re-analysis of the deposited data

Results flagged for a closer look

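Each member's 4 libraries were checked in each age group for a library far from the other 3, judged by its gap to the nearest value over the group's whole range (Dixon's critical value at 95%). Of 62 groups checked 5 had one, and chance flags about 1 in 20. Sema3a was at 3.62 CPM in 12 weeks replicate 2, against 1.92 to 1.97 CPM in the other 12-week libraries. Sema6d was at 29.6 CPM in the same library, against 25.3 to 25.8 CPM. In 12 weeks replicate 1 Sema3c was at 109.7 CPM, against 185 to 200.05 CPM, and Sema6a was at 9.78 CPM, against 17.1 to 17.8 CPM. Sema6a was also apart in 2 years replicate 3, at 13.7 CPM against 6.31 to 7.47 CPM in the other 2-year libraries.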

How the results depend on the processing

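Of the 9 members called higher, 6 kept the call in all 16 alternatives, namely Plxnc1, Sema3d, Sema4a, Sema4d, Sema6b and Sema7a. Of the 15 called lower, 7 did, namely Plxnb1, Sema3b, Sema3f, Sema4c, Sema4g, Sema5b and Sema6c, and 12 did in the 14 alternatives without the length and GC offset. The number of members called lower, 15, was 8 with the offset and 7 with the offset and the replicate block, and the number of partner genes called lower, 21, was 13 with both. Of all genes 27.7% were called lower with the offset and 24.6% with both. Leaving out each library in turn gave 6 to 10 members higher and 12 to 15 lower, 17 to 21 partner genes higher and 19 to 24 lower, and 3096 to 3620 of all genes higher and 3201 to 3801 lower. Signs changed with the offset, and with the offset and the block, for Plxna1 (0.10 and 0.0882), Plxna2 (0.23 and 0.23), Plxna4 (0.71 and 0.65) and Sema3e (0.32 and 0.28). Over the libraries left out in turn Sema3e ranged from -0.29 to 0.10, being at 0.10 without 2 years replicate 3, at 0.07 without 12 weeks replicate 2, and it was at 0.04 without both replicates 3. Plxnb2 was at -0.0432 without 2 years replicate 4 and Sema3g at -0.0854 without 12 weeks replicate 1 and 0.81 without 12 weeks replicate 3. The cause was not tested. With the replicate block alone 8 members were called higher and 14 lower, beside 3112 and 3320 of all genes. In the labels, same-numbered libraries of the ages share only a number. Their deviations from the group means correlated at -0.31, -0.12, 0.05 and 0.03, which cannot show whether they shared a batch. Depth limits Sema5b, Sema4f, Sema4g and Plxnb3, which had 13 to 123 counts over the 2-year libraries.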
